A study of Mus musculus with 8 samples.

Results

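RNA of 9 genes of B cells and plasma cells was followed from whole aortas of *ApoE-/-* and WT mice: *Cd79a*, *Cd79b*, *Ms4a1*, *Pax5*, *Cd22*, *Blk*, *Jchain*, *Mzb1* and *Derl3*. They were picked by symbol, as a list of known lineage genes, and all 9 were present among the 21859 genes counted. Of the 9, 8 had enough counts to be tested, and *Mzb1* did not.

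The mice were 4 *ApoE-/-* and 4 WT males on the C57BL/6 background, 40 weeks old and kept on a normal diet, with 1 library per mouse. The *ApoE-/-* animals lack apolipoprotein E, a ligand for the clearance of lipoproteins, in every cell, and such mice form arterial plaques on chow. Neither genotype carried any other engineered allele or received a drug. The comparison asks how RNA of the diseased vessel differs from that of the healthy vessel, and here what B lineage RNA it holds.

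B cells recognise antigen through a membrane immunoglobulin that signals through the paired chains CD79A and CD79B, and the response is tuned by surface proteins such as CD20 (*Ms4a1*) and CD22 and by Src-family kinases such as BLK. PAX5 is the transcription factor that holds a cell to the B lineage, and it is switched off when the cell becomes a plasma cell. Plasma cells secrete antibody and rely on the J chain (*Jchain*), which joins IgM and IgA into polymers, and on proteins of the endoplasmic reticulum such as MZB1, a chaperone partner, and DERL3, which helps to remove misfolded proteins. In atherosclerosis, B cells are found mainly in the adventitia and the fat around the vessel, and few lie in the plaque itself.

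The libraries held 23240995 to 23940156 read pairs on genes in the *ApoE-/-* mice and 18375898 to 21664598 in the WT mice, ranges that did not overlap. Levels are given as CPM, the read pairs on a gene scaled to the depth of its library, after TMM normalization. *Apoe* fitted the labels, at 14.7 to 36.3 CPM in *ApoE-/-* and 536 to 857 CPM in WT aortas. Summed smooth muscle markers, which define the vessel wall, reached 10671 to 20054 CPM in the WT mice and 12105 to 19605 CPM in 3 of the *ApoE-/-* mice. The library of *ApoE-/-* replicate 1 was lower than every other, at 4803 CPM, and values without it are given below. This gap did not exceed the critical value used at the end for single far mice. Fat markers summed to 2763 to 10579 CPM in *ApoE-/-* and 6889 to 13453 CPM in WT, so the samples held tissue around the vessel. All 11 macrophage markers were higher in every *ApoE-/-* mouse than in every WT mouse (5.41% of all tested genes were), with sums of 512, 896, 1159 and 2260 CPM in *ApoE-/-* replicates 1 to 4 against 285 to 417 CPM in WT. In RNA of whole tissue, a change in the number of cells and a change in RNA per cell cannot be told apart.

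The B lineage genes were rare transcripts in these vessels. *Cd79a*, *Cd79b* and *Ms4a1* together held 33 to 229 read pairs per library, or 0.000180% to 0.000959% of the pairs on genes. In the edgeR quasi-likelihood test with Benjamini-Hochberg adjustment over 15077 genes, 0 of the 8 tested genes had an adjusted p under 0.05, where 0.464% of all tested genes did (0.371% higher and 0.0929% lower in *ApoE-/-*). At an unadjusted p under 0.05, 4 of the 8 were higher in *ApoE-/-* aortas (*Cd22*, *Blk*, *Cd79b* and *Pax5*), against 7.19% of all tested genes. DESeq2 called *Cd22* and *Blk*, and it called 2.84% of all genes higher and 4.29% in either direction. For *Cd22*, *Blk* and *Pax5* every *ApoE-/-* mouse lay above every WT mouse, a pattern that 5.41% of all tested genes had (3.3% of all were apart in the lower direction and 8.71% in either). The fold change was above 1 for all 8 tested genes, as for 58% of all tested genes, and their median log2 fold change was 1.20 against 0.05 over all tested genes.

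**Figure D1:**
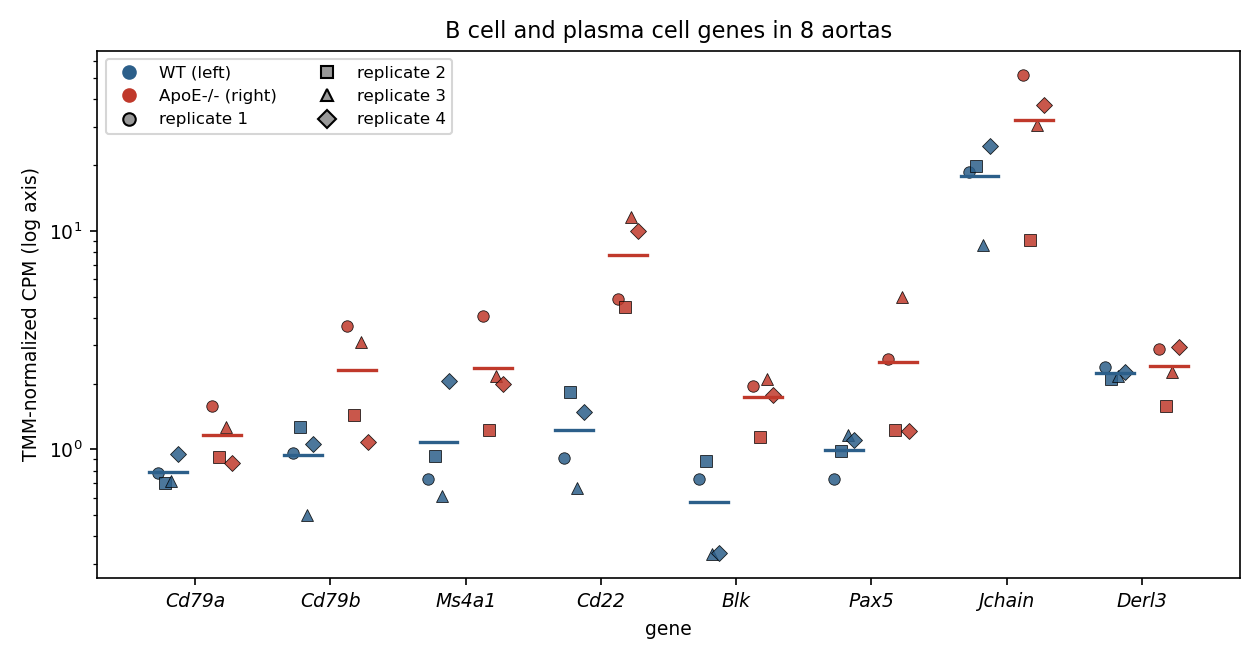
TMM-normalized CPM (vertical log axis) of the 8 tested genes (horizontal axis) in each mouse, with WT in blue on the left and *ApoE-/-* in red on the right, 1 marker shape per replicate number and a line at the mean of each genotype. The genotypes are apart for *Cd22*, *Blk* and *Pax5*, and replicate 1 (circle) and replicate 3 (triangle) are the highest *ApoE-/-* mice for *Cd79a*, *Cd79b* and *Ms4a1*.

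The receptor chains came first. *Cd79a* (ENSMUSG00000003379.7, GRCm38 chr7:24897381-24902197, plus strand) stood at 1.58, 0.918, 1.26 and 0.868 CPM in *ApoE-/-* replicates 1 to 4 and at 0.780, 0.702, 0.720 and 0.957 CPM in WT replicates 1 to 4. *ApoE-/-* replicates 1 and 3 were above every WT mouse and the others lay among them. The means were 1.16 ± 0.333 and 0.790 ± 0.117 CPM (SD, n = 4 mice each). The log2 fold change was 0.55 (SE 0.27, 95% interval -0.06 to 1.16; edgeR adjusted p = 0.516), and 0.36 without *ApoE-/-* replicate 1. The *Cd79a* libraries held 13 to 39 pairs, and the coefficient of variation among WT mice, 14.7%, was below the 24.8% that counting alone gives.

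*Cd79b* (ENSMUSG00000040592.11, chr11:106311341-106314762, minus strand), the partner chain, was at 3.65, 1.44, 3.09 and 1.09 CPM in *ApoE-/-* and at 0.964, 1.26, 0.499 and 1.05 CPM in WT aortas. Replicates 1 and 3 of the *ApoE-/-* mice were high, replicate 2 was just above the WT mice and replicate 4 lay among them. The log2 fold change was 1.29 (SE 0.46, 95% interval 0.23 to 2.34; edgeR adjusted p = 0.303). It was 0.98 without *ApoE-/-* replicate 1 and 0.41 without replicates 1 and 3, an alternative chosen after the values were seen because these were the highest mice for *Cd79b*, so that a lower value had to follow.

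*Ms4a1* (ENSMUSG00000024673.9, chr19:11249675-11266241, minus strand) encodes CD20, the surface protein targeted by B cell depleting antibodies. Its levels were 4.06, 1.22, 2.18 and 2.00 CPM in *ApoE-/-* and 0.734, 0.936, 0.609 and 2.06 CPM in WT mice. One WT mouse, replicate 4, lay above *ApoE-/-* replicates 2 and 4, and the genotypes overlapped. The log2 fold change was 1.12 (SE 0.49, 95% interval -0.01 to 2.25; edgeR adjusted p = 0.444). It was 0.72 without *ApoE-/-* replicate 1, 0.56 without replicates 1 and 3, and 1.63 with WT replicate 4 left out.

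*Cd22* (ENSMUSG00000030577.14, chr7:30865402-30880342, minus strand) encodes a lectin that binds sialic acid and dampens the B cell receptor, and it had the largest difference of the 9 genes. The *ApoE-/-* mice stood at 4.87, 4.50, 11.5 and 9.98 CPM, from 120, 103, 265 and 230 pairs. The WT mice were at 0.918, 1.83, 0.665 and 1.48 CPM, from 20, 39, 12 and 31 pairs. The lowest *ApoE-/-* mouse was well above the highest WT mouse. The means of 7.73 ± 3.57 and 1.22 ± 0.528 CPM gave a 6.27-fold difference (log2 2.65, SE 0.45, 95% interval 1.62 to 3.68). The edgeR adjusted p for *Cd22* was 0.0526, just over the threshold of 0.05, and DESeq2 gave an adjusted p of 1.22e-06. Leaving out single mice moved the log2 value between 2.39 and 2.91 and the edgeR adjusted p between 0.0147 and 0.184, and only the fit without *ApoE-/-* replicate 1 (log2 2.82) brought it under the threshold.

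*Cd22* and *Cd79a* lie on the chromosome of *Apoe*, 11.2 and 5.20 Mb from it. For both, an effect of the missing apolipoprotein and an effect of DNA linked to the targeted allele cannot be told apart. Promoter sequences from RefSeq (GRCm38.p6, from 250 bases before to 50 bases after the start) were held for 5 of the 9 genes, and 3 of them are shown: *Cd22* for its difference, *Cd79a* as the receptor chain on the same chromosome, and *Pax5* as the lineage factor. They were read at chr7:30878979-30879278 (minus strand), chr7:24897247-24897546 (plus strand) and chr4:44710645-44710944 (minus strand). Capitals mark a match to the palindrome that reads TCCC, any pair of bases and GGGA, the motif bound by the B lineage factor EBF1.
Cd22: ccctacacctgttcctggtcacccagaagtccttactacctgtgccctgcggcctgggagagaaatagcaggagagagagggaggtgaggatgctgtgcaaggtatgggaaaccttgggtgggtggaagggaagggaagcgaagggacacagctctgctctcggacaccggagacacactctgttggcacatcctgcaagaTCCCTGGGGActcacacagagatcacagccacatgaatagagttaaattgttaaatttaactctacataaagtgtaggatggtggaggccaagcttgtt
Cd79a: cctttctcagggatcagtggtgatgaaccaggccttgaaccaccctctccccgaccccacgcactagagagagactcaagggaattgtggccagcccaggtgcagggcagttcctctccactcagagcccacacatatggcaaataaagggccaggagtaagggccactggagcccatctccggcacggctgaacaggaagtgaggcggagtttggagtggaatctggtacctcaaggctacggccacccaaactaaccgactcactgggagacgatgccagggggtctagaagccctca
Pax5: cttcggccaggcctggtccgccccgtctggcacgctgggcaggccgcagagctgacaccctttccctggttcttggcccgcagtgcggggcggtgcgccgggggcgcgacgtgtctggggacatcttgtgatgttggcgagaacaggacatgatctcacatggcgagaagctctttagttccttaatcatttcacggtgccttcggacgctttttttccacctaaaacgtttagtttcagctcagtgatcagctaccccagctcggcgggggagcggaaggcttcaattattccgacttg

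The motifs searched, on both strands, were the EBF1 palindrome, the octamer ATGCAAAT, the E box CAGCTG and the ETS-type core GAGGAAGT, none of which contains another. The EBF1 palindrome was held by 0.904% of 32851 promoters, and among the 5 genes by *Cd22* alone, where it begins 49 bases before the RefSeq start. That start lies inside the range given above for *Cd22*, which on the minus strand begins at 30880342. The octamer was held by 1.74% of promoters, the E box by 16.3% and the ETS-type core by 3.20%, and none of the 3 was held by the promoters of *Cd22*, *Cd79a*, *Pax5*, *Jchain* or *Derl3*. A match is a description of letters and no measure of binding.

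*Blk* (ENSMUSG00000014453.4, chr14:63372836-63417037, minus strand) encodes a Src-family kinase downstream of the B cell receptor. It was measured at 1.95, 1.14, 2.09 and 1.78 CPM in *ApoE-/-* and at 0.734, 0.889, 0.332 and 0.335 CPM in WT aortas. All 4 *ApoE-/-* mice were above the WT mice, with replicate 2 the lowest of them. The difference was 3.00-fold (log2 1.58, SE 0.39, 95% interval 0.70 to 2.47), with an adjusted p of 0.117 in edgeR and 0.0110 in DESeq2. The *Blk* libraries held only 6 to 48 pairs, and in DESeq2 the call was lost without *ApoE-/-* replicate 3 or 4 or WT replicate 3 or 4. The log2 value of *Blk* stayed between 1.40 and 1.87 when single mice were left out of edgeR, with 1.52 without *ApoE-/-* replicate 1, and it was 1.33 without *ApoE-/-* replicates 1 and 3.

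*Pax5* (ENSMUSG00000014030.15, chr4:44524757-44710487, minus strand) was at 2.60, 1.22, 4.97 and 1.22 CPM in *ApoE-/-* and at 0.734, 0.983, 1.16 and 1.10 CPM in WT. The WT mice were close together, while *ApoE-/-* replicates 2 and 4 exceeded them only narrowly and replicates 1 and 3 clearly. The log2 fold change was 1.33 (SE 0.48, 95% interval 0.21 to 2.44; edgeR adjusted p = 0.318), 1.31 without *ApoE-/-* replicate 1, 0.76 without replicate 3 and 0.30 without replicates 1 and 3. The coefficient of variation of *Pax5* was 70.7% among *ApoE-/-* mice, where counting alone gives 13.1%, and 19.0% among WT mice, where it gives 22.2%. *Cd22* shares 479 exon bases with an annotated antisense gene and *Pax5* 125 and 636 with 2 such transcripts, and the libraries and the counting kept the strand.

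**Figure D2:**
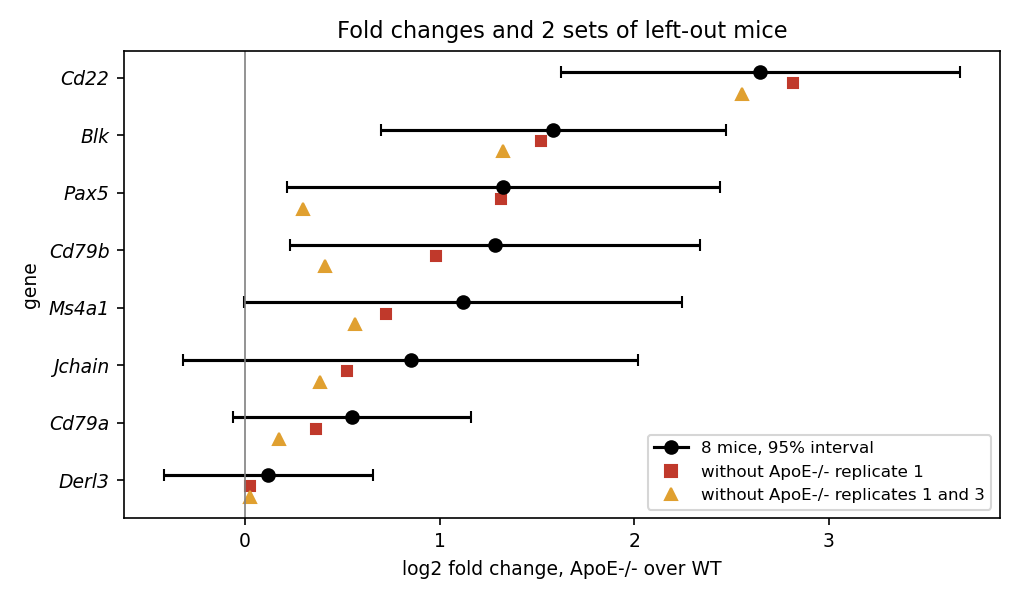
Log2 fold change of *ApoE-/-* over WT (horizontal axis) for the 8 tested genes (vertical axis), with black points and 95% intervals for all 8 mice, red squares without *ApoE-/-* replicate 1 and orange triangles without *ApoE-/-* replicates 1 and 3. Both mice were picked as the highest for *Cd79b* and *Pax5*, which fixes the lower triangles of these genes (0.41 and 0.30); the triangle of *Cd22*, whose highest mice were replicates 3 and 4, is at 2.55 and that of *Blk*, highest in replicates 1 and 3 as well, at 1.33.

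*Jchain* (ENSMUSG00000067149.6, chr5:88519809-88527891, minus strand) was the most abundant of the 9 genes. Its levels were 51.9, 9.10, 30.4 and 37.7 CPM in *ApoE-/-* and 18.6, 19.8, 8.59 and 24.6 CPM in WT, from 155 to 1279 pairs per library. *ApoE-/-* replicates 1, 3 and 4 exceeded all WT mice, and *ApoE-/-* replicate 2 was as low as the lowest WT mouse. The log2 fold change of *Jchain* was 0.85 (SE 0.51, 95% interval -0.32 to 2.02; edgeR adjusted p = 0.635), and 0.52 without *ApoE-/-* replicate 1. The coefficient of variation was 55.3% in *ApoE-/-* and 37.6% in WT mice, where counting alone gives 3.62% and 5.17%.

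*Derl3* (ENSMUSG00000009092.5, chr10:75893413-75895941, plus strand) had the lowest coefficient of variation of the 8 tested genes among WT mice, but not among *ApoE-/-* mice, where it was 26.5% against 24.2% for *Blk*. The WT mice stood at 2.39, 2.11, 2.16 and 2.25 CPM and the *ApoE-/-* mice at 2.88, 1.57, 2.27 and 2.95 CPM, on both sides of them. The log2 fold change was 0.12 (SE 0.23), and its 95% interval of -0.42 to 0.66 leaves room for a change in either direction (edgeR adjusted p = 0.908). It was 0.02 without *ApoE-/-* replicate 1 and ran from 0.01 to 0.28 over the fits without single mice. *Mzb1* (ENSMUSG00000024353.5) was barely counted, with 11, 1, 0 and 0 pairs in the *ApoE-/-* and 1, 2, 1 and 3 pairs in the WT libraries. Only *ApoE-/-* replicate 1 had more than 3 pairs, and 3 pairs amount to 0.122 to 0.166 CPM. The difference of mean log2 CPM (prior count 2) was -0.13 by an exact two-sided permutation test (p = 0.914, the smallest possible being 0.0286), while DESeq2 gave a log2 fold change of 0.51 (SE 1.55). Neither sign can be read at this depth. *Mzb1* shares 695 of its 1215 exon bases with *Spata24* on the same strand, so pairs in the shared bases cannot be given to one gene.

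Per kilobase of exon, *Jchain* led in both genotypes, with mean levels of 12.8 CPM per kb in *ApoE-/-* and 7.11 CPM per kb in WT, and its values did not overlap those of the next gene. In the WT aortas *Derl3* followed at 1.12, *Cd79b* at 0.660, *Cd79a* at 0.542, *Cd22* at 0.243, *Blk* at 0.212, *Ms4a1* at 0.175 and *Pax5* at 0.112 CPM per kb. *Derl3* was apart from *Cd79b*, and *Cd79a* from *Cd22*, while the other neighbours overlapped. In the *ApoE-/-* aortas the order was *Cd79b* at 1.62, *Cd22* at 1.53, *Derl3* at 1.21, *Cd79a* at 0.795, *Blk* at 0.645, *Ms4a1* at 0.382 and *Pax5* at 0.282 CPM per kb, and each of these overlapped the next. By these means *Cd22* thus moved from below both receptor chains to a level like that of *Cd79b*, but single mice differed. In *ApoE-/-* replicate 1 *Cd22* was at 0.966 CPM per kb, below *Cd79a* at 1.09 and *Cd79b* at 2.55. In replicate 4 it was at 1.98, against 0.758 for *Cd79b*.

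The balance among the genes within each mouse was compared as a ratio of pairs, which needs no scaling between libraries. There were 1.33, 3.12, 3.73 and 9.20 *Cd22* pairs per *Cd79b* pair in *ApoE-/-* replicates 1 to 4 and 0.952, 1.44, 1.33 and 1.41 in the WT mice. Replicate 1 was inside the WT range and the other *ApoE-/-* mice were above it. Against the sum of *Cd79a*, *Cd79b* and *Ms4a1* pairs, *Cd22* gave 0.524, 1.26, 1.77 and 2.53 in *ApoE-/-* and 0.370, 0.629, 0.364 and 0.365 in WT. The *Jchain* pairs per pair of the same sum were 5.59, 2.54, 4.65 and 9.55 in *ApoE-/-* and 7.50, 6.82, 4.70 and 6.05 in WT. For this ratio, which rests on 33 to 229 pairs in the denominator, the *ApoE-/-* mice lay on both sides of the WT mice.

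**Figure D3:**
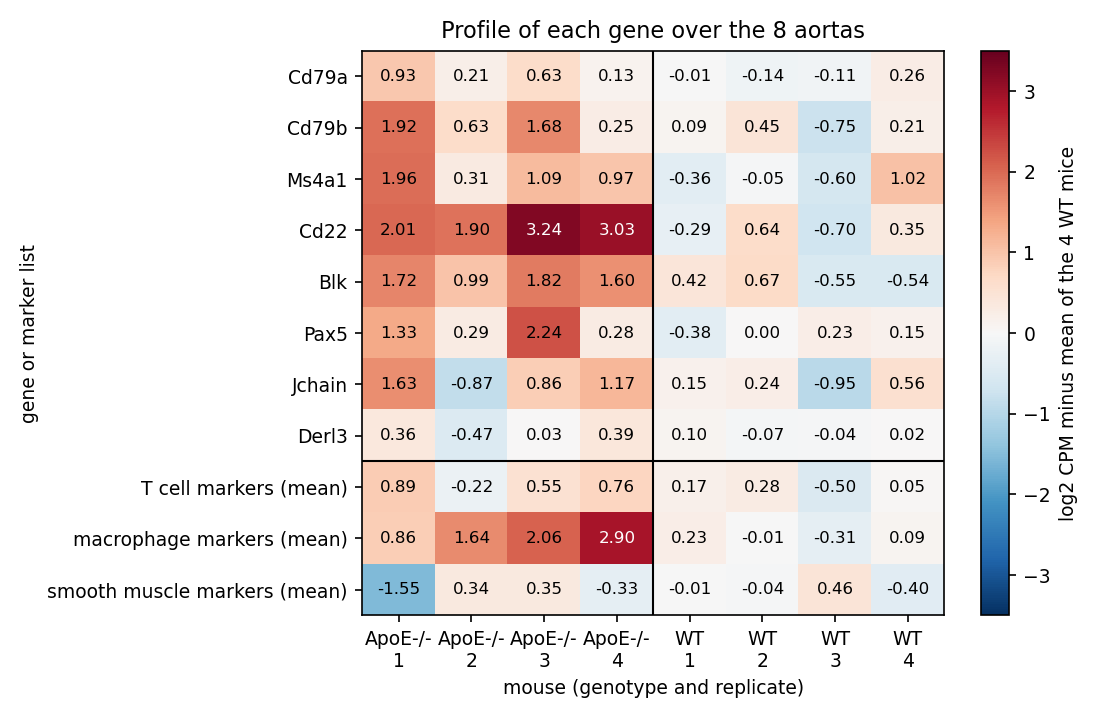
Log2 CPM minus the mean of the 4 WT mice (colour scale and printed value) for the 8 tested genes and the means of 3 marker lists (vertical axis) in each of the 8 mice (horizontal axis). *Cd22* is highest in *ApoE-/-* replicates 3 and 4, at 3.24 and 3.03, whereas *Cd79b* is highest in replicates 1 and 3, at 1.92 and 1.68; macrophage markers climb to 2.90 in replicate 4.

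The genes did not share one order of mice. Relative to the WT mean, on the log2 scale, *Cd22* was at 2.01, 1.90, 3.24 and 3.03 in *ApoE-/-* replicates 1 to 4, and *Cd79b* at 1.92, 0.63, 1.68 and 0.25. Macrophage markers averaged 0.86, 1.64, 2.06 and 2.90 in the same mice, and T cell markers 0.89, -0.22, 0.55 and 0.76. As a description over the 8 mice, the root mean square distance of the *Cd22* profile was 0.591 log2 units to the macrophage markers and 0.947 to the other B cell genes. The profile of *Cd79b* was 1.04 from the macrophage markers and 0.529 from the other B cell genes, and that of *Blk* 0.673 and 0.490. *Jchain* and *Ms4a1* were nearer to the T cell markers (0.450 and 0.549) than to the other B cell genes (0.691 and 0.581), and *Jchain* was 0.771 from the other plasma cell genes. *Derl3* was 0.232 from the other plasma cell genes, 0.304 from the T cell markers, 0.354 from the endothelial markers and 0.464 from the other B cell genes. *Cd79a* was about as far from the other plasma cell genes (0.324) and the T cell markers (0.350) as from the other B cell genes (0.329). The profiles were centred but not scaled, so a distance also follows the size of the fold change and is no measure of lineage. CD22 is also known from cells of the macrophage lineage such as microglia, and the part of macrophages in the *Cd22* result was not tested. Among pairs of genes, *Cd79a* and *Derl3* were nearest at 0.351, followed by *Ms4a1* and *Jchain* at 0.498 and *Cd79b* and *Ms4a1* at 0.514.

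The tested genes outside the list whose profile lay nearest to the mean of the 6 B cell genes were *Myo16* (distance 0.125), *Btla* (0.175) and *Rnf180* (0.194), over 8 mice. *Btla* encodes an inhibitory receptor of lymphocytes. Nearest to the mean of *Jchain* and *Derl3* were *Ccdc122* (0.151) and *Lrrc8e* (0.170). Gene by gene, a comparison added after the values were seen, *Cd22* was nearest to *Lcn2* (0.324), *Serpina3n* (0.326) and *Il7r* (0.354). *Jchain* was nearest to *Pou2af1* (0.331), a B cell coactivator of immunoglobulin genes.

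Other genes of B cell identity and receptor signalling were examined as a list of 30, of which 24 were tested. By edgeR, 2 were called higher and 0 lower, 16 were higher at an unadjusted p under 0.05, and 10 were higher without overlap, where over all tested genes the shares were 0.371%, 0.0929%, 7.19% and 5.41%. The median log2 fold change was 0.82, against 0.05 over all tested genes. *Cd72*, an inhibitory co-receptor of B cells, was at 8.50 ± 3.85 CPM in *ApoE-/-* and 1.42 ± 0.245 CPM in WT (log2 2.57, SE 0.37; edgeR adjusted p = 0.0396). *Pou2f2*, which encodes the octamer-binding factor OCT2, was at 5.10 ± 1.17 and 1.62 ± 0.355 CPM (log2 1.66, SE 0.25; edgeR adjusted p = 0.0396). Both calls were lost when any mouse other than *ApoE-/-* replicate 1 was left out, in fits that called 0 to 17 genes in all. DESeq2 gave *Cd72* and *Pou2f2* adjusted p-values of 5.39e-08 and 8.48e-07. *Cd180*, a Toll-like receptor homologue of B cells and macrophages, and *Bank1*, a B cell scaffold, had log2 fold changes of 2.01 and 1.14 without overlap of the genotypes. They did not pass in edgeR (adjusted p = 0.0526 and 0.0856) and passed in DESeq2 (adjusted p = 7.85e-06 and 0.00172), which called 10 genes of this list higher (2.84% of all genes).

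A further 5 of the 30 genes had too few counts to be tested. Of these *Fcmr*, the receptor for IgM, had 23, 8, 26 and 12 pairs in the *ApoE-/-* libraries and 0, 8, 5 and 1 in WT, and *Fcrla* had 34, 10, 13 and 12 against 2, 8, 5 and 6. *Tnfrsf13c*, the receptor for the survival factor BAFF, had 19, 5, 9 and 7 pairs against 4, 3, 2 and 9. As for *Cd79b* and *Ms4a1*, *ApoE-/-* replicate 1 was first or near first in each.

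**Figure D4:**
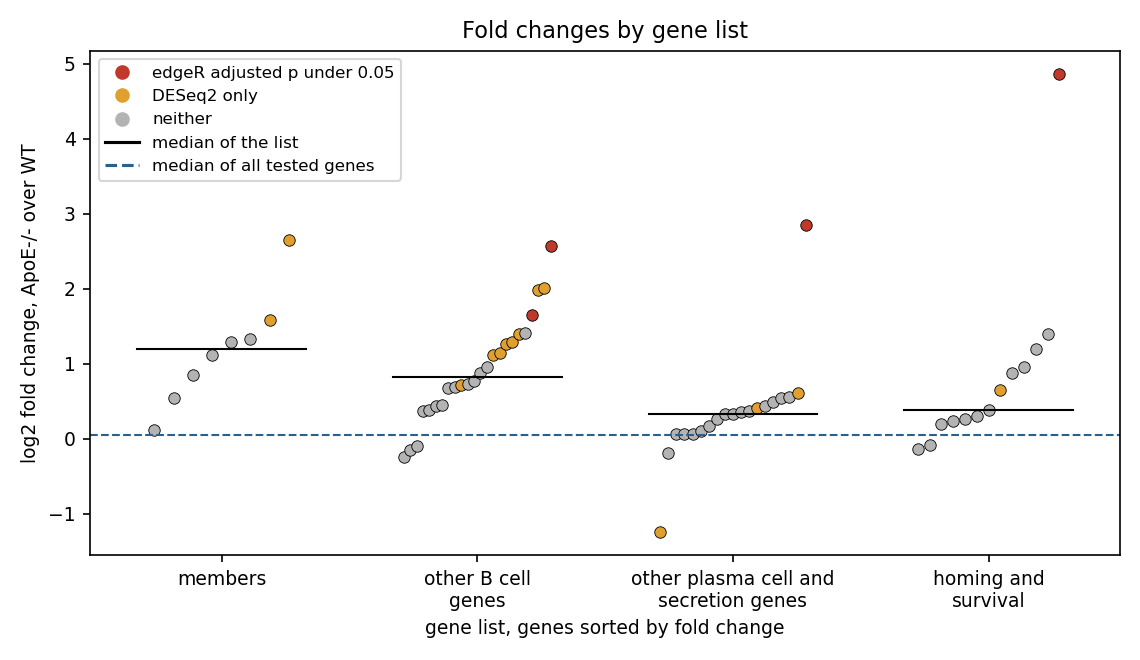
Log2 fold change of *ApoE-/-* over WT (vertical axis) for each tested gene of 4 lists (horizontal axis, genes sorted by value), with red for edgeR adjusted p under 0.05, orange for DESeq2 only, grey for neither, a black line at the median of each list and a dashed line at the median of all tested genes. The medians are 1.20 for the 8 genes followed here, 0.82 for other B cell genes, 0.33 for plasma cell and secretion genes and 0.38 for homing and survival genes.

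Of 20 listed genes of plasma cells and antibody secretion, 19 were tested, 1 was called higher and 0 lower by edgeR (0.371% and 0.0929% of all tested genes), DESeq2 called 3 higher and 1 lower (4.29% of all genes in either direction), and the median log2 fold change was 0.33, against 0.05 over all tested genes. The called gene was *Slamf7*, a surface receptor of plasma cells, natural killer cells and macrophages. It was at 12.3 ± 6.36 CPM in *ApoE-/-* and 1.70 ± 0.597 CPM in WT (log2 2.85, SE 0.46, edgeR adjusted p = 0.0488). The edgeR call was lost when any mouse other than *ApoE-/-* replicate 1 was left out, in fits that called 0 to 17 genes in all. DESeq2 gave *Slamf7* an adjusted p of 1.26e-07. *Edem1* and *Manf*, which serve protein quality control in the endoplasmic reticulum of all secretory cells, had log2 fold changes of 0.41 and 0.61, with every *ApoE-/-* mouse above every WT mouse, and passed in DESeq2 (adjusted p = 0.0102 and 0.0201) and not in edgeR (adjusted p = 0.109 and 0.124). *Irf4*, a transcription factor of plasma cells that fat cells and macrophages use as well, had a log2 fold change of -1.25 and means of 68.7 ± 35.7 and 163 ± 52.7 CPM; it passed in DESeq2 (adjusted p = 0.0357) and not in edgeR (adjusted p = 0.235). *Tnfrsf17*, which encodes the plasma cell receptor BCMA, had 5, 4, 6 and 19 pairs against 6, 10, 6 and 5 and was not tested.

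The partners of *Derl3* in the removal of misfolded proteins were 9 tested genes. Of these, edgeR called 0 (0.464% of all tested genes), and 2 were higher at an unadjusted p under 0.05 (7.19% of all tested genes). Higher without overlap were 2 (5.41%), and DESeq2 called 1, *Edem1*, higher (2.84%). The median log2 fold change of the 9 was 0.16, against 0.05 over all tested genes. The named ones beside *Edem1* were *Edem2* at 0.37, *Selenos* at 0.31 and *Sel1l* at 0.16 (edgeR adjusted p = 0.226, 0.497 and 0.630). *Derl3* itself, at 0.12, lay close to this median.

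Signals that draw B cells into tissue and keep them alive were the next list, with 13 of 18 genes tested, 1 called higher by edgeR (0.371% of all tested genes), 2 called higher by DESeq2 (2.84%) and a median log2 fold change of 0.38 (0.05 over all tested genes). *Il6*, a cytokine that promotes plasma cell formation among many other effects, was at 4.71 ± 1.67 CPM in *ApoE-/-* and 0.153 ± 0.146 CPM in WT (log2 4.87, SE 0.71; edgeR adjusted p = 0.0396, lost when any mouse other than *ApoE-/-* replicate 1 was left out). *Tnfsf13b*, which encodes BAFF, was at 12.7 ± 2.74 and 8.07 ± 0.173 CPM without overlap (log2 0.66, SE 0.17), passing in DESeq2 (adjusted p = 0.0265) and not in edgeR (adjusted p = 0.127). The chemokine receptors *Cxcr5* and *Ccr7*, which guide B and T cells within lymphoid tissue, had log2 fold changes of 0.95 and 1.19 with overlapping mice (edgeR adjusted p = 0.243 and 0.280).

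Genes of B-1 cells and of germinal centres gave 0 edgeR calls among 5 and 5 tested, where 0.464% of all tested genes were called. At an unadjusted p under 0.05 there were 2 and 1, all higher (7.19% of all tested genes), and DESeq2 called 1 and 0 higher (2.84% of all genes). *Spn* (CD43), present on B-1 cells and on most other leukocytes, had the largest log2 fold change of the B-1 list, 1.85 (adjusted p = 0.0725 in edgeR and 0.000174 in DESeq2), followed by *Plac8* at 0.77, *Cd5* at 0.65 and *Zbtb32* at -0.13. In the germinal centre list *S1pr2* was at 0.60, *Fas* at 0.39, *Gcsam* at 0.36 and *Mybl1* at 0.31.

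Markers of other cells that could carry the same transcripts were measured alongside. T cell markers summed to 9.49 to 19.9 CPM in *ApoE-/-* and 7.87 to 12.0 CPM in WT, with *ApoE-/-* replicate 2 lowest in its group as for *Jchain* and *Ms4a1*, and all 10 tested had a log2 fold change above 0, as 58% of all tested genes did. Of these 10, 0 were called by edgeR or DESeq2, 2 were higher at an unadjusted p under 0.05 and 0 were higher without overlap, where over all genes edgeR called 0.371% and DESeq2 2.84% higher, 7.19% were higher at an unadjusted p under 0.05 and 5.41% without overlap. Markers of plasmacytoid dendritic cells, which can also express *Derl3* and *Blk*, summed to 253 to 289 CPM and 280 to 293 CPM, with a median log2 fold change of 0.15. Of the 6 tested, 0 were called by edgeR (0.464% of all tested genes), 1 was higher and 1 lower at an unadjusted p under 0.05 (11.4% in either direction), and 1 was lower without overlap (3.3%) and 1 called lower by DESeq2 (4.29% in either direction). Of the markers of gamma delta T cells, which can use *Blk* as well, 3 were tested, of which 1 was higher without overlap (5.41% of all tested genes) and in DESeq2 (2.84%) and 0 were called by edgeR (0.464%), with a median log2 fold change of -0.38 and sums of 62.2 to 109 CPM in *ApoE-/-* and 97.1 to 116 CPM in WT. Lymph node stroma markers summed to 26.1, 12.7, 13.3 and 33.2 CPM in *ApoE-/-* replicates 1 to 4 and 11.3, 18.9, 13.3 and 24.5 CPM in WT replicates 1 to 4. Of these markers *Chst4*, not tested, had 46 pairs in WT replicate 4, 13 in WT replicate 1 and 0 to 3 in the others. WT replicate 4 was also the highest WT mouse for *Cd79a*, *Ms4a1* and *Jchain*. *Ccl21a*, a chemokine of lymph node stroma with near-identical gene copies, was listed at 0 in all 8 libraries, which uniquely placed reads may give whether or not it is present. Blood markers summed to 33.4 to 303 CPM in *ApoE-/-* and 124 to 241 CPM in WT. The part of these cells in the values of the B lineage genes was not tested.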

How the data were processed

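Aortic RNA of 8 mice was sequenced after ribosomal RNA depletion as stranded libraries, 1 per mouse. The files the authors deposited hold, for each mouse, unnormalized counts of read pairs. The submitters' processing notes name TopHat2, HTSeq and GRCm38/mm10, and versions and annotation are not given in the sources used here. Coordinates and exon lengths came from GENCODE M21 (GRCm38), which held 21817 of the identifiers and lacked 42. Pairs without a gene stayed out of library sizes. They made up 64.4% to 67.7% of the *ApoE-/-* libraries and 69.8% to 72.1% of the WT libraries, without overlap, and the part of this difference in the results was not tested. Counting error limits the precision of rare genes, and so does the spread between mice. Among *ApoE-/-* mice the coefficient of variation of every gene followed was above what counting alone gives (46.2% against 7.46% for *Cd22*). Among WT mice it was below the counting value for *Cd79a*, *Pax5*, *Mzb1* and *Derl3* and above it for the others.

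Counts were filtered with filterByExpr (15077 genes kept), TMM-scaled and tested with the quasi-likelihood F test of edgeR 4.0.16 (robust, genotype only, two-sided) in R 4.3.3, with Benjamini-Hochberg adjustment and a threshold of 0.05. Standard errors are the log2 fold change over the square root of F. Mice are separate animals, and p-values measure the spread between them. *Mzb1* was tested by an exact permutation test over 70 assignments. Profiles and likeness used log2 CPM with prior count 2. Alternatives were DESeq2 1.42.0, limma-voom (limma 3.58.1), other scaling factors and filters, no robust estimation, a replicate block and leaving out mice. In a test on simulated counts of this comparison, 200 of 14950 genes differed by 1.5 on the log2 scale, and edgeR called 34.5% of them with 2.82% of its calls false, while DESeq2, on 15057 genes, called 71.0% with 27.6% false. With a difference of 3, edgeR called 87.0% with 7.45% false and DESeq2 96.5% with 19.9% false. The changed genes came from a limited range of mean counts, and both genotypes were given the same dispersion.

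The genes and lists were chosen with earlier results of these data known. The text names all 9 genes and, from each related list, genes called by edgeR and the 4 with the smallest p, plus the 3 nearest profiles, except some genes that are not reported here; untested genes of the lists were named after their counts were seen. The 12 immunoglobulin constant region genes listed had 0 entries in the table used, so the tests planned for them were not run and they are not analysed here. Promoters came from RefSeq tables, which lacked entries for *Cd79b*, *Ms4a1*, *Blk* and *Mzb1*.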

Additional observations from a re-analysis of the deposited data

Results flagged for a closer look

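Values were examined for 1 mouse lying far from the 3 others of its genotype, as the gap to the nearest mouse divided by the range of the group. Of 50 groups of 4 mice, 3 exceeded the critical value of 0.829, where chance alone gives about 2.5 (1 in 20). *Mzb1* did so through *ApoE-/-* replicate 1 (0.902), at 0.446 CPM against 0 to 0.0437 CPM in the other *ApoE-/-* mice. The sum of the other B cell genes did so through the same mouse (0.858), at 322 CPM against 404 to 417 CPM. Most of that sum is *Ebf1*, a factor that stromal and fat cells express too (215 CPM in *ApoE-/-* and 254 CPM in WT on average), so it does not follow B cell RNA: *Cd79a*, *Cd79b* and *Ms4a1* were highest in the same mouse. The sum of heart muscle markers did so through *ApoE-/-* replicate 4 (0.960), at 160 CPM against 335 to 342 CPM.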

How the results depend on the processing

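Of 198 refitted fold changes of the 8 tested genes, 197 were above 1, the exception being *Derl3* (log2 -0.01 in DESeq2 without *ApoE-/-* replicate 4). The count of the 8 genes called, 0 in edgeR, was 2 in DESeq2 and 0 to 1 when single mice were left out. Called genes of the other B cell list (2) were 10 in DESeq2, 0 in limma-voom and 0 to 6 without single mice. Those of the plasma cell list (1) were 4 in DESeq2, 0 in limma-voom, with upper-quartile factors or with at least 10 counts in every mouse, and 0 to 3 without single mice. Those of the homing and survival list (1) were 2 in DESeq2, 0 with at least 10 counts in every mouse and 0 to 2 without single mice. That filter removed *Cd79b* and *Blk*. The cause of these moves was not tested. In alternatives chosen after seeing the data, the fit without *ApoE-/-* replicates 1 and 3 called 1 (*Cd22*), 5, 3 and 2 genes in the 4 lists. DESeq2 with single mice left out (*ApoE-/-* replicates 1 to 4, then WT) called 2, 2, 1, 2, 2, 2, 1 and 1 of the 8 genes, 11, 9, 6, 8, 8, 7, 4 and 5 of the other B cell list, 1 to 5 of the plasma cell list and 1 to 2 of the homing list. Over all tested genes edgeR called 70, DESeq2 721, limma-voom 27, and edgeR without single mice 0 to 593. The fit without *ApoE-/-* replicates 1 and 3 called 822 of 15269 genes. DESeq2 with single mice left out called 1548, 712, 529, 677, 473, 492, 447 and 427 genes, in the same order of mice. The difference in *Mzb1* ran from -0.73 to 0.13 without single mice (exact permutation p 0.0571 to 1).

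Replicate numbers are shared by the genotypes but name different mice. The correlations of same-numbered mice were 0.0593, -0.448, 0.316 and 0.162, so the numbers do not pair them. With the replicate number as a block, 0 of the 8 genes, 0 other B cell, 0 plasma cell and 0 homing genes were called, *Cd22* was at 2.61 (edgeR adjusted p = 0.164), and 2 genes were called in all. The low counts of *Mzb1* and, in WT mice, of *Blk*, *Cd79a* and *Cd79b* limit what could be detected, as does the spread between mice.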

Other observations

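Heart muscle markers summed to 160 to 342 CPM in *ApoE-/-* and 414 to 717 CPM in WT aortas, with a median log2 fold change of -2.61 over 8 genes. In 7 of the 8 genes every *ApoE-/-* mouse was lower than every WT mouse, as for 3.3% of all tested genes, while edgeR called 0 of the 8 at an adjusted p under 0.05, 7 had an unadjusted p under 0.05, and DESeq2 called 5 lower. Over all genes, in either direction, 0.464% were called by edgeR, 11.4% had an unadjusted p under 0.05 and 4.29% were called by DESeq2. Endothelial markers had a median of -0.38, and 4 of 8 were lower without overlap, with 0 called by edgeR, 5 at an unadjusted p under 0.05 and 4 called lower by DESeq2, against the same shares of all genes. Their relation to the B lineage genes was not tested.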
